A study of Mus musculus with 6 samples.

Results

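The respiratory chain and ATP synthase, the protein complexes of the inner mitochondrial membrane that oxidise NADH and succinate and make ATP, were examined in mouse C2C12 cells with and without a knockout of the myostatin gene Mstn. Genes were chosen by symbol alone: subunits of complex I (Nduf followed by a, b, c, s or v and a number), complex II (Sdha to Sdhd), complex III (Uqcr and Cyc1), cytochrome c (Cycs), complex IV (Cox4 to Cox8) and ATP synthase, also called complex V (Atp5), together with every gene of the mitochondrial genome (mt-). Of the 14548 genes in the deposited files, 92 met this rule, 82 in the nuclear genome and 10 in the mitochondrial genome. The rule reads symbols and no expression value, but it was written with earlier results of these data known.

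C2C12 is an established line of mouse myoblasts, the precursors of skeletal muscle fibres, and the cells were grown in DMEM with fetal bovine serum. The WT group had 3 libraries of unedited cells, and the MSTN-KO group had 3 libraries of the line C11, in which exon 3 of Mstn had been targeted with CRISPR/Cas9. The MSTN-KO libraries therefore come from 1 edited line, so what is particular to that line and what comes with the loss of Mstn cannot be told apart. All 6 libraries are labelled as myoblasts of skeletal muscle and as strain C11, WT included, so the genotype label was used for grouping. The labels do not say whether replicates were separate cultures, and p-values then measure only the spread between these libraries.

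Electrons enter the chain at complex I (from NADH) or complex II (from succinate), pass through complex III and cytochrome c to oxygen at complex IV, and the proton gradient built on the way drives ATP synthase. Most subunits are encoded by nuclear genes and imported into mitochondria, while a small set of hydrophobic core subunits is encoded by mitochondrial DNA, so that complexes I, III, IV and V are assembled from the products of both genomes. Complex II is wholly nuclear. In muscle, several subunits of complex IV have a heart and muscle isoform beside the ubiquitous one, and the muscle forms come up as myoblasts fuse into myotubes.

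Values are FPKM, the fragments on a gene per kilobase of its exons and per 1000000 mapped fragments, as the authors deposited them, so levels of different genes can be compared per length. The number of fragments behind a value is unknown, and no counting interval can be given. Mstn RNA was at 0.0586 FPKM or less in all 6 libraries and so gives no check of the genotype. The paper checked the C11 line by PCR and genomic sequencing, which showed a disrupted target site. By Western blot it reported that MSTN protein was lacking in C11 cells. Summed over all genes, FPKM was 723705 to 764524 in WT and 856314 to 999579 in MSTN-KO. The myoblast markers Myod1 and Des were detected in both groups, at 126 to 167 and 576 to 807 FPKM in WT and at 90.8 to 104 and 325 to 409 FPKM in MSTN-KO. Markers are called by the limma test defined below, which called 8.78% of all tested genes higher in MSTN-KO and 8.96% lower. Of 7 myoblast markers tested 5 were called lower, and of 18 myotube markers tested 17 were called lower. Vcam1 and Neb did not pass, though every MSTN-KO library lay below every WT library. The myoblast marker Myf5 did not pass either, and its groups overlapped (9.73 to 12.9 FPKM in WT and 9.49 to 14.7 FPKM in MSTN-KO). The summed myotube markers were at 414 to 1357 FPKM in WT and 64.5 to 112 FPKM in MSTN-KO. Of 4 adipocyte markers tested 3 were called higher (summed, 12.8 to 14.04 against 36.6 to 48.7 FPKM), while the defining adipocyte marker Plin1 was listed at 0 in all WT libraries and at 0.0639 FPKM or less in MSTN-KO. Of 3 fibroblast markers tested, Col3a1 was called higher and Dcn lower (summed list, 183 to 256 against 322 to 386 FPKM). The macrophage markers summed to 0.818 to 2.45 FPKM and the endothelial markers to 0.0717 to 0.183 FPKM over all libraries. In bulk RNA, fewer cells of a type and less RNA per cell cannot be told apart.

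Nuclear respiratory chain genes were mostly slightly higher in the libraries labelled MSTN-KO, and the mitochondrially encoded mRNAs were not. A gene was called when limma's Benjamini-Hochberg adjusted p was under 0.05, taken over the 10837 genes that reached 1 FPKM in any library. By this rule 8.78% of all tested genes were called higher and 8.96% lower. Of the 82 nuclear genes 78 could be tested. The other 4, the isoform genes Cox4i2, Cox6b2, Cox7b2 and Ndufa4l2, were under 1 FPKM in every library. Of the 78 tested, 31 were called higher, 2 were called lower (Cox7a1 and Cox6a2) and 45 did not pass. The mean was higher in MSTN-KO for 69 of 78 nuclear genes, against 49.9% of all tested genes. In 53 nuclear genes every MSTN-KO library lay above every WT library, against 19.3% of all tested genes, and in 2 (Cox7a1 and Sdha) every MSTN-KO library lay below, against 18.1%. The median log2 fold change of the nuclear genes was 0.35, and that of all tested genes was -0.00. Fold changes are on the log2(FPKM + 1) scale, which understates the change of low genes.

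The rises were small and depended on how libraries are scaled. When each library was scaled to a summed FPKM of 1000000, the median of all genes moved to -0.26 and that of the nuclear respiratory chain genes to 0.07, a difference between them of 0.33 against 0.36 without scaling. Under that scaling 4 nuclear genes were called higher (Cox7a2l, Cox8a, Ndufa13 and Ndufb5) and 4 lower (Cox7a1, Sdha, Uqcrb and Uqcrfs1), and calls over all genes turned from 952 higher and 971 lower to 350 higher and 2367 lower, that is from 49.5% to 12.9% higher. In both fits 69 of 78 nuclear genes lay above the median of all genes. Over the 18 settings run, Cox7a2l, Ndufb5 and Ndufa13 were called higher in each and Cox7a1 was called lower in each. A log2 fold change above 0 in every setting was found for 44 of the 78 nuclear genes and one below 0 in every setting for 7.

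Short and highly expressed genes also leaned upward in MSTN-KO. Of 578 tested genes with a longest transcript of up to 1000 bases, 28.2% were called higher, with a median log2 fold change of 0.27, and of 1017 genes with a mean of at least 100 FPKM, 24.9% were called higher, with a median of 0.22. The nuclear respiratory chain genes had a median mean level of 232 FPKM. Among those tested the median was 0.35 both for the 36 genes up to 1000 bases and for the 42 longer ones. Length here and in the correction below is that of the longest annotated transcript, for example 6310 bases for Atp5l and 4715 for Atp5g1. Which transcript was expressed is unknown, so this split cannot separate the rise from mRNA length. The part of mRNA length in the rise was not tested. After each library was corrected for a smooth function of gene length and GC content, the median of the nuclear genes was 0.27, with 28 called higher and 3 lower. In that fit 10.5% of all tested genes were called higher and 12.3% lower.

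**Figure D1:**
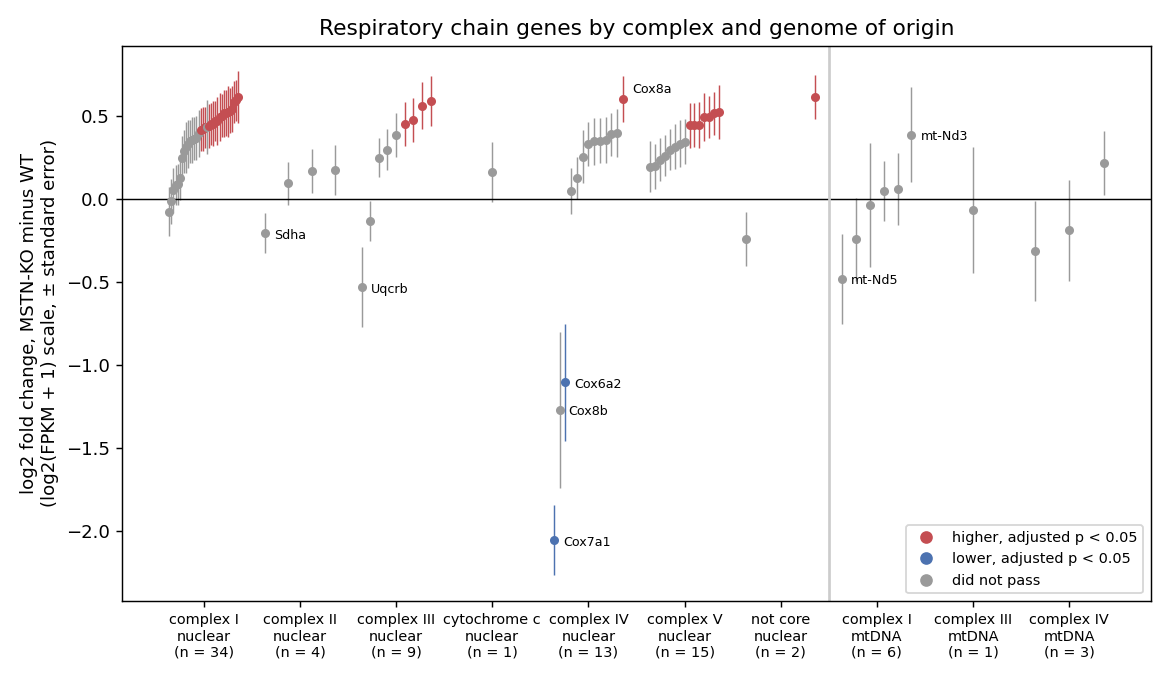
Log2 fold change of each tested respiratory chain gene (points, with standard errors) on the log2(FPKM + 1) scale, MSTN-KO minus WT, by complex and by genome of origin, with each class ordered by value. Red points passed the adjusted p upward (31 nuclear genes) and blue points downward (Cox7a1 and Cox6a2), the 10 mitochondrial mRNAs are all grey, and under scaling to an equal sum 26 nuclear genes lie below 0 in place of 9.

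The promoters of nuclear respiratory chain genes are known for sites of NRF1, of the ETS factor GABP (also named NRF2) and of YY1, through which their expression is coordinated. Promoter windows ran from 250 bases before to 50 bases after the transcription start, from RefSeq on GRCm38.p6. A window was matched for 65 of the 82 nuclear genes, by Ensembl identifier or, where that gave none, by symbol. Tested genes used for comparison were matched by symbol. The core NRF1 motif GCATGCGC, read on both strands, lay in 11 of the 65 (16.9%), against 6.39% of 8455 tested genes with a window and 3.05% of all 27025 genes. The GABP motif CCGGAAG was found in 16 (24.6%), against 21.4% of tested genes and 9.93% of all genes. The YY1 motif AAGATGGCG lay in 7 (10.8%), against 3.96% and 1.64%. At least 1 of these motifs was present in 28 of the 65 (43.1%), against 29.1% of tested genes and 13.6% of all genes. The motif TCAAGGTCA of estrogen-related receptors was in 2 windows (3.08%, against 0.331% of tested genes) and the E-box CAGCTG in 6 (9.23%, against 17.7% of tested genes), and the MEF2 motif CTAAAAATA was in none, against 0.331% of tested genes. Among the 28 genes with a window that were called higher, 5 held the NRF1 core, 9 the GABP motif and 1 the YY1 motif. These are matches of letters and say nothing of binding.

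A set of 6 windows shows the range among the genes described here, 5′ to 3′ in the direction of transcription, in lower case with NRF1 and GABP matches on either strand in capitals. Cox7a1 (chr7:30183921-30184220, plus strand) is a muscle isoform called lower in every setting and Ndufb5 (chr3:32736813-32737112, plus strand) a complex I gene called higher in every setting, and neither window held any motif searched. Cox8a (chr19:7217567-7217866, minus strand) carries 2 GABP matches close to its start. Uqcr11 (chr10:80406772-80407071, minus strand) and Atp5k (chr5:108434350-108434649, minus strand), called higher in complexes III and V, carry a GABP match and an NRF1 core each. In Atp5k the core is read on both strands, at overlapping positions. Cycs (chr6:50566520-50566819, minus strand), the gene of cytochrome c, holds 1 NRF1 core and did not pass the test.
Cox7a1: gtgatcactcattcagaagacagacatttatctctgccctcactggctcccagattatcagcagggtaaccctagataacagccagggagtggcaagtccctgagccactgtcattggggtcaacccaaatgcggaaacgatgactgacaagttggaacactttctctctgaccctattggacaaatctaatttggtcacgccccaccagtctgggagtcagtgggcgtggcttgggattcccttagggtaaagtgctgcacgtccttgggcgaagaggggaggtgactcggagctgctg
Ndufb5: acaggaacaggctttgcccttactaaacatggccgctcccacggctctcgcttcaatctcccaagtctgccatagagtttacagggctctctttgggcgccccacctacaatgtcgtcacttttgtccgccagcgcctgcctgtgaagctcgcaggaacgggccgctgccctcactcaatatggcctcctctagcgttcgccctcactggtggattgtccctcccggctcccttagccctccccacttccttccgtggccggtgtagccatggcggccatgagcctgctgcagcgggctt
Cox8a: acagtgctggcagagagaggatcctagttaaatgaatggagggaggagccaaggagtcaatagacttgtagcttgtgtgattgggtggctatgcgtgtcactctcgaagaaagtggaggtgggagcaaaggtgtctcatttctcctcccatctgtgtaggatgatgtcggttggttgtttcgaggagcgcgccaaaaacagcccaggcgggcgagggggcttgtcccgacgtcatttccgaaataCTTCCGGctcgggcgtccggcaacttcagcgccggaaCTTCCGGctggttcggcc
Uqcr11: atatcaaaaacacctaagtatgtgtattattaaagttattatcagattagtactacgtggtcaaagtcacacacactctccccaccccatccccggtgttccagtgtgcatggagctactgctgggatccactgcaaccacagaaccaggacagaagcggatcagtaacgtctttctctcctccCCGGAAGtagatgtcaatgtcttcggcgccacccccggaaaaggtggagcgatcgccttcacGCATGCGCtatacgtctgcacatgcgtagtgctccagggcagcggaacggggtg
Atp5k: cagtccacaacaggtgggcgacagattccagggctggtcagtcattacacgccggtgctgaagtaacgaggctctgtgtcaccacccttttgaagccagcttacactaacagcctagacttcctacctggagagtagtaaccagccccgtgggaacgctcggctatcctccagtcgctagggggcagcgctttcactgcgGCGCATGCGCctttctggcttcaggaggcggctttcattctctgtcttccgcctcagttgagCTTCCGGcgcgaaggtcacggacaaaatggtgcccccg
Cycs: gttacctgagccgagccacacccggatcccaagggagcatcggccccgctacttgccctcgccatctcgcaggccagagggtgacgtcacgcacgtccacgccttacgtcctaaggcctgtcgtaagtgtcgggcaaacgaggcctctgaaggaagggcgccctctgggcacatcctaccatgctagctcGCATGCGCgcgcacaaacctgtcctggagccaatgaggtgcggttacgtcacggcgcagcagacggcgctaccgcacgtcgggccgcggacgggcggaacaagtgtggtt

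Complex I, the NADH dehydrogenase, held the most called genes and also the most nuclear genes tested. All 34 of its nuclear genes in the files were tested, and 18 were called higher and 0 lower. Their median log2 fold change was 0.43, with a range from -0.08 to 0.61. As a share of tested nuclear genes, 52.9% were called higher in complex I, 46.7% in ATP synthase and 44.4% in complex III. It was 7.69% in complex IV and 0% in complex II, against 8.78% of all tested genes. Ndufb10, a subunit of the membrane arm, stood at 149, 157 and 178 FPKM in WT libraries 1, 2 and 3 and 242, 199.8 and 310.3 FPKM in MSTN-KO libraries 1, 2 and 3 (log2 fold change 0.61, standard error 0.16, limma adjusted p = 0.0175). Ndufa13, also named GRIM-19, was at 196, 178 and 170.1 FPKM in WT and 292, 246 and 286 FPKM in MSTN-KO (log2 fold change 0.59, standard error 0.12, limma adjusted p = 0.00603). Ndufb5, whose window is printed above, was at 104, 114 and 117 FPKM in WT and 165, 149.6 and 190.4 FPKM in MSTN-KO (log2 fold change 0.58, standard error 0.13, limma adjusted p = 0.00765). In each of the 3 genes the lowest MSTN-KO library lay above the highest WT library, and MSTN-KO replicate 2 was the lowest of its group. Ndufb9, the nuclear gene of the complex with the highest mean level, was at 465 ± 30.6 FPKM in WT and 623 ± 61.9 FPKM in MSTN-KO (SD, n = 3; log2 fold change 0.42, limma adjusted p = 0.0399).

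Nuclear subunits of complex I that hold iron-sulfur clusters or the flavin are Ndufs1, Ndufs7, Ndufs8, Ndufv1 and Ndufv2. Ndufs7, Ndufs8 and Ndufv1 were called higher, with log2 fold changes of 0.50, 0.44 and 0.42 (limma adjusted p = 0.0188, 0.0351 and 0.0428). Ndufs1, the largest subunit, was at 22.8, 30.0 and 26.9 FPKM in WT and 28.1, 25.9 and 21.5 FPKM in MSTN-KO, so the groups overlapped (log2 fold change -0.08). Ndufv2 was at 70.8, 71.8 and 86.8 FPKM in WT and 92.1, 93.9 and 111 FPKM in MSTN-KO, with no overlap between the groups, and did not pass (log2 fold change 0.37, standard error 0.13, limma adjusted p = 0.0715). These genes were named after their values were seen. The level of Ndufs1, with a mean of 25.9 FPKM over all libraries, was the lowest among the nuclear genes of complex I.

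Complex II, succinate dehydrogenase, which is also an enzyme of the tricarboxylic acid cycle, had 4 genes tested and 0 called by limma in either direction, with 0 at an unadjusted p under 0.05 and a median log2 fold change of 0.13. Sdhd, a membrane anchor, had the highest level, at 159, 153 and 162 FPKM in WT and 150.4, 163 and 195 FPKM in MSTN-KO (log2 fold change 0.09, standard error 0.13, limma adjusted p = 0.650). The flavoprotein gene Sdha, whose 3 MSTN-KO libraries all lay below the WT libraries, was at 54.2, 55.1 and 59.7 FPKM in WT and 52.2, 48.2 and 45.6 FPKM in MSTN-KO (log2 fold change -0.21, standard error 0.12, limma adjusted p = 0.249). Scaled to an equal sum, Sdha was called lower, at -0.49 on the log2 scale (limma adjusted p = 0.0161).

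Complex III, the cytochrome bc1 complex, had 4 of 9 nuclear genes called higher and 0 lower, with a median log2 fold change of 0.39. Uqcr11, the smallest subunit and the most abundant of these nuclear mRNAs, stood at 817, 717 and 739.9 FPKM in WT libraries 1, 2 and 3 and 1231, 925 and 1294 FPKM in MSTN-KO libraries 1, 2 and 3 (log2 fold change 0.59, standard error 0.15, limma adjusted p = 0.0170). Uqcrh, the hinge protein next to cytochrome c1, was at 578, 616 and 622 FPKM in WT and 896, 755 and 1054 FPKM in MSTN-KO (log2 fold change 0.56, standard error 0.14, limma adjusted p = 0.0168). Cyc1, cytochrome c1 itself, was at 319, 265 and 284 FPKM in WT and 388, 369 and 452 FPKM in MSTN-KO (log2 fold change 0.48, standard error 0.13, limma adjusted p = 0.0248). No library of one group reached the values of the other in these 3 genes. Uqcrq was the fourth called gene (log2 fold change 0.45, limma adjusted p = 0.0334). In the other direction, Uqcrb was at 196, 247 and 337 FPKM in WT and 114, 207 and 227 FPKM in MSTN-KO, with wide spread in both groups (log2 fold change -0.53, standard error 0.24, limma adjusted p = 0.143). Cycs, the electron carrier between complexes III and IV, was at 263, 382 and 445 FPKM in WT and 405, 345 and 449 FPKM in MSTN-KO, and WT replicate 1 was its lowest library (log2 fold change 0.16, standard error 0.18, limma adjusted p = 0.562).

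ATP synthase had 15 nuclear genes tested, and the mean of all 15 was higher in MSTN-KO. Of these, 7 were called higher and 0 lower, the median log2 fold change was 0.35, and 13 had no overlap between the groups. Atp5e, the epsilon subunit of the central stalk, was at 848, 865 and 829.9 FPKM in WT libraries 1, 2 and 3 and 1231, 968 and 1519 FPKM in MSTN-KO libraries 1, 2 and 3 (log2 fold change 0.52, standard error 0.16, limma adjusted p = 0.0388). Atp5c1, the gamma subunit that turns inside the catalytic head, was at 364, 375 and 387 FPKM in WT and 481, 525 and 613 FPKM in MSTN-KO (log2 fold change 0.52, standard error 0.13, limma adjusted p = 0.0160). Atp5k, a small membrane subunit, was at 247, 253 and 279 FPKM in WT and 376, 323 and 401 FPKM in MSTN-KO (log2 fold change 0.49, standard error 0.13, limma adjusted p = 0.0186). Each of the 3 was higher in every MSTN-KO library than in any WT library. Atp5b, the catalytic beta subunit and the most abundant nuclear mRNA of the chain, was at 1619 ± 149 FPKM in WT and 2013 ± 145 FPKM in MSTN-KO (SD, n = 3) and did not pass (log2 fold change 0.32, limma adjusted p = 0.131).

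The ring of c subunits that turns with proton flow is encoded by 3 genes whose mature proteins are the same. Atp5g1 was called higher (log2 fold change 0.45, limma adjusted p = 0.0392), and Atp5g2 and Atp5g3 did not pass, with log2 fold changes of 0.35 and 0.33 (limma adjusted p = 0.0951 and 0.122). Summed over the 3 genes, the level was 2351, 2184 and 2347 FPKM in WT and 2948, 2606 and 3323 FPKM in MSTN-KO. Neither the summed level nor the part held by Atp5g1 (19.3 to 21.4% in WT and 21.8 to 22.2% in MSTN-KO) overlapped between the groups, while the parts of Atp5g2 (37.1 to 42.0% against 37.7 to 40.1%) and Atp5g3 (36.6 to 41.5% against 38.2 to 40.3%) overlapped. The lowest mean level among the nuclear genes of ATP synthase was 206 FPKM.

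Complex IV, cytochrome c oxidase, was split between its isoforms. Of its 13 nuclear genes tested, 1 was called higher (7.69%, against 8.78% of all tested genes) and 2 lower (15.4%, against 8.96%). The median log2 fold change was 0.33. The heart and muscle isoform Cox7a1 (chr7:30184144-30186078, plus strand, GRCm38) was at 10.5, 12.8 and 10.5 FPKM in WT libraries 1, 2 and 3 and 1.80, 3.17 and 1.19 FPKM in MSTN-KO libraries 1, 2 and 3 (log2 fold change -2.05, standard error 0.21, limma adjusted p = 2.78e-05). The lowest WT library was above the highest MSTN-KO library, and the call held in all 18 settings. Cox6a2 was at 1.75, 3.10 and 0.124 FPKM in WT and 0, 0 and 0.279 FPKM in MSTN-KO (log2 fold change -1.10, standard error 0.35, limma adjusted p = 0.0471). Its WT replicate 3 lay below MSTN-KO replicate 3, so the groups overlapped, and it was called lower in 5 of the 17 settings that tested it. Cox8b was at 3.91, 3.77 and 0 FPKM in WT and 0, 0 and 0.671 FPKM in MSTN-KO and did not pass (log2 fold change -1.27, standard error 0.47, limma adjusted p = 0.0798). WT replicate 3 was listed at 0 for Cox8b, as were MSTN-KO replicates 1 and 2. In this limma fit, these 3 were also the only respiratory chain genes to meet the study's criteria for a differentially expressed gene (an unadjusted p under 0.05 with a change of more than 1 on the log2 scale in either direction). Of all tested genes, 1.21% met these cutoffs upward and 2.3% downward in the same fit. The paper applied the cutoffs with other software (iDEP) and reported other counts, with more genes up than down.

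The ubiquitous partners stood much higher in level. Cox8a was at 1435, 1441 and 1296 FPKM in WT libraries 1, 2 and 3 and 2078, 1914 and 2359.9 FPKM in MSTN-KO libraries 1, 2 and 3 and was the gene of complex IV called higher (log2 fold change 0.60, standard error 0.14, limma adjusted p = 0.00993). Cox6a1 was at 1152, 1152 and 1087 FPKM in WT and 1513, 1251 and 1591 FPKM in MSTN-KO and Cox7a2 at 190.1, 189 and 202 FPKM in WT and 248, 210.4 and 289.7 FPKM in MSTN-KO. Both had every MSTN-KO library above every WT library and did not pass (log2 fold changes 0.35 and 0.35, limma adjusted p = 0.0929 and 0.0913). Cox7a1 made up 5.26, 6.35 and 4.95% of the summed FPKM of Cox7a1 and Cox7a2 in the WT libraries and 0.723, 1.49 and 0.409% in the MSTN-KO libraries. The muscle isoform was thus a minor form in both groups, and for Cox6a2 and Cox8b its share was 0.272% or less in every library. The myotube markers were lower in the same MSTN-KO libraries, 17 of 18 by limma. Myog, the transcription factor of myoblast differentiation, was at 175, 148 and 47.3 FPKM in WT and 7.33, 10.2 and 11.6 FPKM in MSTN-KO, and Mylpf, a fast myosin light chain, at 419, 399.9 and 115 FPKM in WT and 9.50, 18.3 and 21.7 FPKM in MSTN-KO. WT replicate 3, lowest in Cox6a2 and Cox8b among the WT libraries, was also the lowest WT library in both of these, while its Cox7a1 level was close to that of WT replicate 1. The part of myotube content in the isoform values was not tested.

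**Figure D2:**
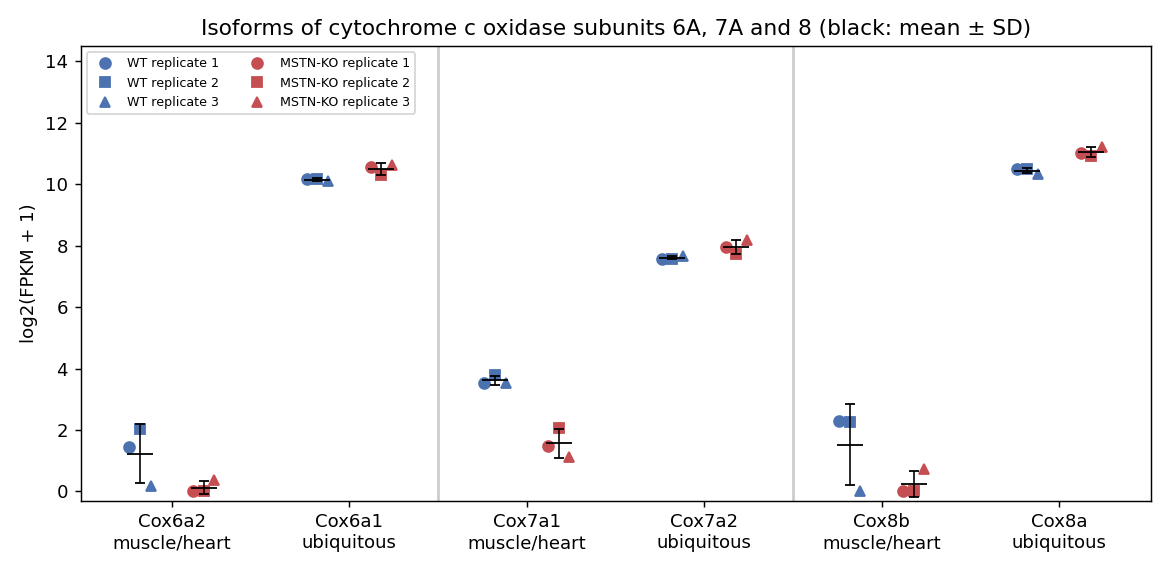
Level of the muscle and heart isoform and of the ubiquitous isoform of complex IV subunits 6A, 7A and 8 in each library, as log2(FPKM + 1), with group means and SDs (n = 3) in black. Cox7a1 separates the groups, with 10.5 to 12.8 FPKM in WT and 1.19 to 3.17 FPKM in MSTN-KO, whereas Cox6a2 and Cox8b are at 3.91 FPKM or less everywhere and overlap through WT replicate 3.

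Among the remaining genes of complex IV, Cox6b1 and Cox7b had every MSTN-KO library above every WT library and did not pass (log2 fold changes 0.33 and 0.39, limma adjusted p = 0.106 and 0.0545). The testis isoforms Cox6b2 and Cox7b2 and the isoform Cox4i2 were at 0.340 FPKM or less in all libraries. Cox7a2l, a factor that joins complexes III and IV into supercomplexes and is classed here as not a core subunit, was at 213, 210.4 and 185 FPKM in WT and 298, 279.6 and 358 FPKM in MSTN-KO (log2 fold change 0.62, standard error 0.13, limma adjusted p = 0.00684). All 3 MSTN-KO libraries were above the WT libraries for Cox7a2l, which had the largest log2 fold change of the 78 nuclear genes in the fit reported. Ndufa4, counted with complex IV, was at 862 ± 63.7 FPKM in WT and 1101 ± 162 FPKM in MSTN-KO (SD, n = 3) and did not pass (log2 fold change 0.35, limma adjusted p = 0.109).

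Chromosomes 1, 13 and 14 were looked at singly, and the other chromosomes were not. Genes of chromosome 13 were lower as a whole in MSTN-KO, with a median log2 fold change of -0.34 over 410 tested genes, of which 29.3% were called lower and 4.39% higher. The 6 nuclear respiratory chain genes on this chromosome, Uqcrb, Uqcrfs1, Sdha, Cox7c, Ndufs4 and Ndufs6, had a median of -0.07, with 0 called by limma and 1 (Uqcrb) at an unadjusted p under 0.05, while the 72 tested genes on other chromosomes had a median of 0.38, with 31 called higher and 2 lower. On chromosome 1, where the median of 627 genes was -0.25, the 6 respiratory chain genes had a median of 0.09, with 0 called by limma and 0 at an unadjusted p under 0.05. There 5 of these 6 had a higher mean in MSTN-KO, while 498 of the 627 genes had a lower one. Of the 9 nuclear genes with a lower mean in MSTN-KO, 4 were on chromosome 13, and Cox7a1, Cox6a2 and Cox8b were on chromosome 7. The other tested members on chromosome 7, Ndufa3, Cox6b1, Ndufc2 and Uqcrc2, had higher means in MSTN-KO (log2 fold changes 0.45, 0.33, 0.25 and 0.25). No median over all genes of chromosome 7 was taken. Uqcrfs1, the Rieske iron-sulfur protein of complex III, was at 145, 154 and 149.8 FPKM in WT and 128, 131 and 151 FPKM in MSTN-KO, and Cox7c at 713, 796 and 843 FPKM in WT and 802, 720.1 and 914 FPKM in MSTN-KO, both with overlap between the groups. No nuclear respiratory chain gene in the files lay on chromosome 14, where the median of 367 tested genes was -0.29. DNA copy number was not measured, and the part of chromosome number in these values was not tested.

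The mRNAs of the mitochondrial genome had a median mean level of 3171 FPKM, against 232 FPKM for the nuclear genes, with single mRNAs from 289 to 17919 FPKM. The median standard error of their log2 fold changes was 0.28, against 0.14 for the nuclear genes. All 10 mRNAs of the mitochondrial genome in the files were tested, and 0 were called. None had an unadjusted p under 0.05 in limma, none had groups that did not overlap, and 4 had a higher and 6 a lower mean log2 value in MSTN-KO, with a median log2 fold change of -0.05. mt-Co3, a core subunit of complex IV, was the most abundant mRNA of all, at 18576, 12529 and 25609 FPKM in WT libraries 1, 2 and 3 and 10836, 25289.6 and 14673 FPKM in MSTN-KO libraries 1, 2 and 3 (log2 fold change -0.19, standard error 0.30, limma adjusted p = 0.702). mt-Co1, the subunit that reduces oxygen, was at 4399.6, 4424 and 5776 FPKM in WT and 2203, 6713 and 3968 FPKM in MSTN-KO, and mt-Co2, which takes electrons from cytochrome c, at 3303, 3495 and 4573 FPKM in WT and 3655, 5640.3 and 4012 FPKM in MSTN-KO. The log2 fold changes were -0.31 for mt-Co1 and 0.22 for mt-Co2 (limma adjusted p = 0.498 and 0.457). mt-Cytb, the only subunit of complex III that this genome encodes, was at 1489, 1338 and 2275 FPKM in WT and 803, 3371 and 1451 FPKM in MSTN-KO (log2 fold change -0.07, standard error 0.38, limma adjusted p = 0.919). The MSTN-KO values took in the whole WT range for mt-Co1 and mt-Cytb and overlapped it for mt-Co3 and mt-Co2.

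The complex I subunits of the mitochondrial genome form its proton-pumping membrane core. mt-Nd3 was at 4839, 4936 and 5186 FPKM in WT libraries 1, 2 and 3 and 3506, 8857 and 8891 FPKM in MSTN-KO libraries 1, 2 and 3 and had the largest rise in mean (log2 fold change 0.39, standard error 0.29, limma adjusted p = 0.373). mt-Nd5, with the largest fall, was at 307, 324 and 340.0 FPKM in WT and 139, 404 and 221 FPKM in MSTN-KO (log2 fold change -0.48, standard error 0.27, limma adjusted p = 0.238). For mt-Nd4l the values were 5092, 3407 and 4129 FPKM in WT and 3023, 5575 and 2561 FPKM in MSTN-KO. The other 3 had log2 fold changes of 0.06 (mt-Nd1), -0.04 (mt-Nd2) and 0.05 (mt-Nd6), with adjusted p-values in limma from 0.870 to 0.960. mt-Nd6 is the only one of the 10 encoded on the light strand (chrM:13552-14070), and its gene overlaps the end of mt-Nd5 on the other strand. The strand setting of the counting is not given in the sources used here, so reads of mt-Nd6 and of the transcript opposite to it could not be told apart, and reads from nuclear copies of mitochondrial DNA are uncertain in the same way. mt-Atp6, mt-Atp8 and mt-Nd4, and the rRNAs and tRNAs of this genome, were not analysed here.

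**Figure D3:**
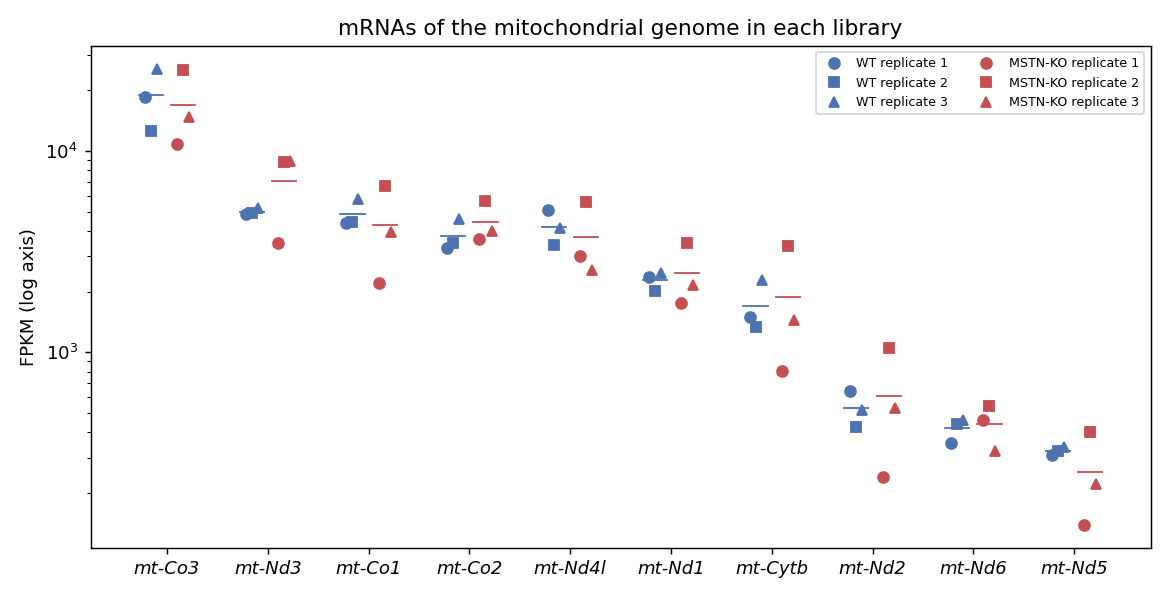
FPKM of the 10 mitochondrial mRNAs in each library on a log axis, ordered by mean level, with group means as short lines. The WT libraries lie within 2.04 times of each other, while MSTN-KO replicate 2 is the highest of all libraries in 8 of 10 mRNAs and MSTN-KO replicate 1 the lowest in 7 of 10.

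The 3 MSTN-KO libraries differed more from each other than the WT libraries did, and they did so across the mitochondrial mRNAs together. The highest MSTN-KO library was 1.54 (mt-Co2) to 4.38 times (mt-Nd2) the lowest, while in WT this ratio ran from 1.07 (mt-Nd3) to 2.04 (mt-Co3). Relative to the mean of its group, the median deviation of the 10 mRNAs was -0.64 in MSTN-KO replicate 1, 0.67 in replicate 2 and -0.12 in replicate 3 on the log2 scale. In WT replicates 1, 2 and 3 it was -0.06, -0.15 and 0.14. MSTN-KO replicate 2 was above its group mean in 10 of 10 mitochondrial mRNAs and below it in 74 of 78 nuclear genes. MSTN-KO replicate 3 was above its group mean in 74 of 78 nuclear genes, with a median deviation of 0.17. Within this group, the summed FPKM of all genes was also lowest in replicate 2 (856314) and highest in replicate 3 (999579). The same counts were not taken over all genes, so a shift of the whole library cannot be told apart. Leaving out MSTN-KO replicate 2 moved the median of the mitochondrial mRNAs to -0.54 and led to 3 calls, all lower: mt-Nd5 (log2 fold change -0.88, limma adjusted p = 0.00243), mt-Nd4l (-0.58, 0.0240) and mt-Co1 (-0.71, 0.0246). Leaving out MSTN-KO replicate 1 moved the median to 0.19 and led to 1 call, mt-Nd3, upward (0.83, 0.0117). The direction for the mitochondrial mRNAs thus depended on which MSTN-KO libraries were included, and only mt-Nd5 and mt-Nd4l stayed below 0 in every one of the 18 settings. Leaving out a library also changed the nuclear calls and those over all genes. Of 78 nuclear genes, 45 were called higher without MSTN-KO replicate 2, against 10.96% of all tested genes. Without MSTN-KO replicate 1 it was 6 (4.73% of all tested genes) and without MSTN-KO replicate 3 it was 8 (5.39%). Without WT replicates 1, 2 and 3 it was 12, 4 and 13, against 7.38, 3.92 and 5.59%. The nuclear medians ran from 0.28 to 0.45.

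As shares of each library, the 10 mitochondrial mRNAs took 5.47, 4.61 and 6.72% of the summed FPKM in WT and 3.00, 7.12 and 3.88% in MSTN-KO. The means were 5.60% ± 1.06 and 4.67% ± 2.17 (SD, n = 3), a difference below the spread of the MSTN-KO libraries. The 82 nuclear genes took 3.64, 3.76 and 3.63% in WT and 3.95, 3.75 and 4.07% in MSTN-KO, with means of 3.67% ± 0.0730 and 3.92% ± 0.159 (SD, n = 3). MSTN-KO replicate 2, which had the highest mitochondrial share, lay among the WT libraries in this nuclear share. With the mitochondrial mRNAs left out of the sum, the nuclear share was 3.85, 3.94 and 3.89% in WT and 4.07, 4.04 and 4.23% in MSTN-KO, and the groups did not overlap. The ratio of mitochondrial to nuclear summed FPKM was 1.51, 1.23 and 1.85 in WT and 0.760, 1.90 and 0.954 in MSTN-KO. Genes for cytosolic ribosomal proteins took 22.8 to 24.0% of the sum in WT and 26.8 to 29.5% in MSTN-KO, and these shares enter the sum by which each share is divided.

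**Figure D4:**
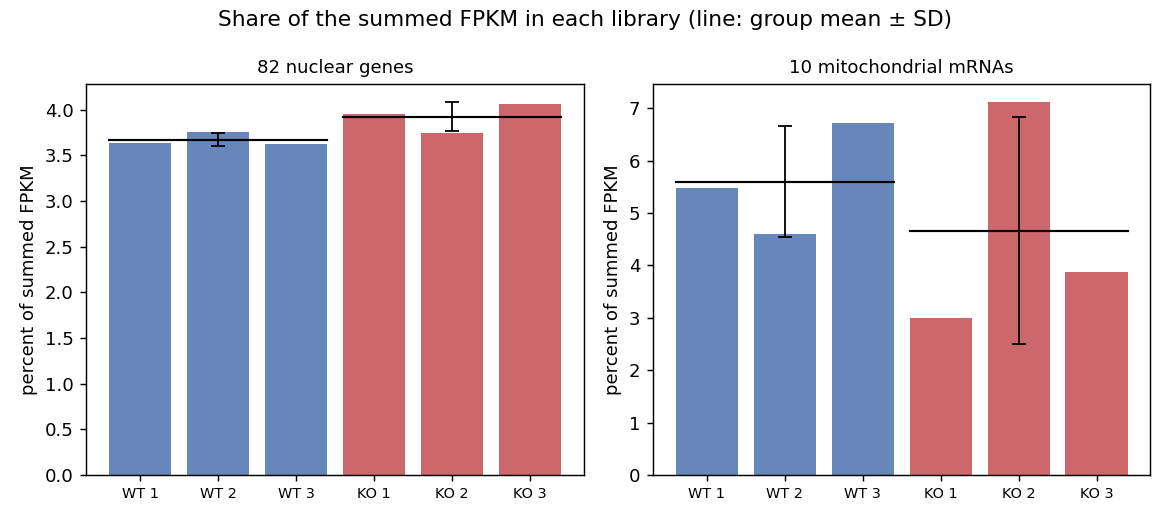
Percent of the summed FPKM of each library held by the 82 nuclear genes (left) and by the 10 mitochondrial mRNAs (right), with bars for single libraries, lines for group means and error bars for the SD (n = 3). The nuclear share lies between 3.63 and 4.07% in all 6 libraries, while the mitochondrial share runs from 3.00 to 7.12% among the MSTN-KO libraries alone.

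Regulators of mitochondrial biogenesis were given by a list of 16 genes, of which 11 could be tested. By limma 0 were called, against 17.7% of all tested genes in either direction, and 1 (Ppard) had an unadjusted p under 0.05. Nrf1, whose core motif is in the windows of Uqcr11, Atp5k and Cycs above, was at 22.1, 20.4 and 19.9 FPKM in WT and 18.4, 21.0 and 21.7 FPKM in MSTN-KO. Gabpa, the DNA-binding subunit of GABP, was at 11.5, 8.90 and 9.12 FPKM in WT and 9.92, 10.6 and 5.004 FPKM in MSTN-KO, with MSTN-KO replicate 3 the lowest. Esrra, an estrogen-related receptor that acts on these genes, was at 37.9, 29.2 and 31.0 FPKM in WT and 37.2, 34.0 and 42.5 FPKM in MSTN-KO. All 3 overlapped between the groups, with log2 fold changes of -0.03, -0.24 and 0.21 (limma adjusted p = 0.890, 0.478 and 0.325). Ppargc1a, the coactivator PGC-1alpha that raises mitochondrial content in muscle, was at 0.0721 FPKM or less in all 6 libraries. These regulators were named after their values were seen.

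Factors that copy, transcribe and process mitochondrial nucleic acids were mostly not called either. The limma test called 8.78% of all tested genes higher and 8.96% lower. Of 16 tested genes for mitochondrial DNA maintenance and transcription, 1 was called higher and 1 lower. Lonp1, a protease of the matrix that binds mitochondrial DNA, was at 43.3, 40.4 and 44.6 FPKM in WT and 55.1, 52.8 and 63.0 FPKM in MSTN-KO (log2 fold change 0.40, standard error 0.12, limma adjusted p = 0.0394). Mterf3, a negative regulator of mitochondrial transcription that lies on chromosome 13, was at 8.99, 11.4 and 12.2 FPKM in WT and 5.35, 6.36 and 5.74 FPKM in MSTN-KO (log2 fold change -0.79, standard error 0.15, limma adjusted p = 0.00387). Of 16 genes for mitochondrial RNA processing and stability, 2 were called higher and 0 lower. These were Elac2, which cuts tRNA 3′ ends from the precursor, at 15.4 ± 1.198 FPKM in WT and 21.9 ± 2.23 FPKM in MSTN-KO, and Hsd17b10, a subunit of mitochondrial RNase P, at 104 ± 8.78 FPKM in WT and 139 ± 10.8 FPKM in MSTN-KO (SD, n = 3; limma adjusted p = 0.0263 and 0.0327). None of the MSTN-KO libraries overlapped the WT libraries in these 4 genes.

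Assembly factors build the complexes without being part of them. Over all tested genes, 8.78% were called higher and 8.96% lower. For complex I, 2 of 15 tested factors were called higher and 0 lower, with a median log2 fold change of 0.21. They were Ecsit, at 12.6, 11.7 and 11.9 FPKM in WT and 19.6, 16.6 and 21.3 FPKM in MSTN-KO (log2 fold change 0.62, standard error 0.14, limma adjusted p = 0.00821), and Ndufaf8 (log2 fold change 0.54, limma adjusted p = 0.0137). For complexes II and III it was 1 of 8, Uqcc2 (log2 fold change 0.48, limma adjusted p = 0.0251), with a median of 0.05. Complex IV had 5 of 22 factors called higher and 0 lower, with a median of 0.18. Surf1, needed for an early step of complex IV assembly, was at 28.8, 27.5 and 25.9 FPKM in WT and 44.3, 38.9 and 48.1 FPKM in MSTN-KO (log2 fold change 0.65, standard error 0.13, limma adjusted p = 0.00419). Cmc2, Pet100, Cox16 and Coa6 were the other 4, with log2 fold changes of 0.59, 0.52, 0.48 and 0.45. For ATP synthase, 0 of 5 factors were called by limma and 1 (Atpif1) had an unadjusted p under 0.05, with a median of 0.13.

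The tricarboxylic acid cycle, which feeds NADH and succinate to the chain, had 4 of 18 enzyme genes called higher and 1 lower. Shares called over all tested genes were 8.78% higher and 8.96% lower. The median log2 fold change of the 18 was 0.15. Idh3g and Idh3b, subunits of the NAD-dependent isocitrate dehydrogenase, were called higher (log2 fold changes 0.50 and 0.40, limma adjusted p = 0.0171 and 0.0396). Succinyl-CoA synthetase pairs the common alpha subunit Suclg1 with Suclg2 in its GTP-forming type or with Sucla2 in its ATP-forming type. Suclg1 and Suclg2 were called higher, the latter at 18.2, 19.5 and 22.1 FPKM in WT and 31.3, 30.0 and 30.1 FPKM in MSTN-KO (log2 fold change 0.59, standard error 0.13, limma adjusted p = 0.00674). Sucla2, on chromosome 14, was called lower, at 31.3, 34.6 and 35.1 FPKM in WT and 23.5, 26.0 and 17.7 FPKM in MSTN-KO (log2 fold change -0.58, standard error 0.15, limma adjusted p = 0.0180). The groups did not overlap in either beta subunit gene, and they moved in opposite directions.

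**Figure D5:**
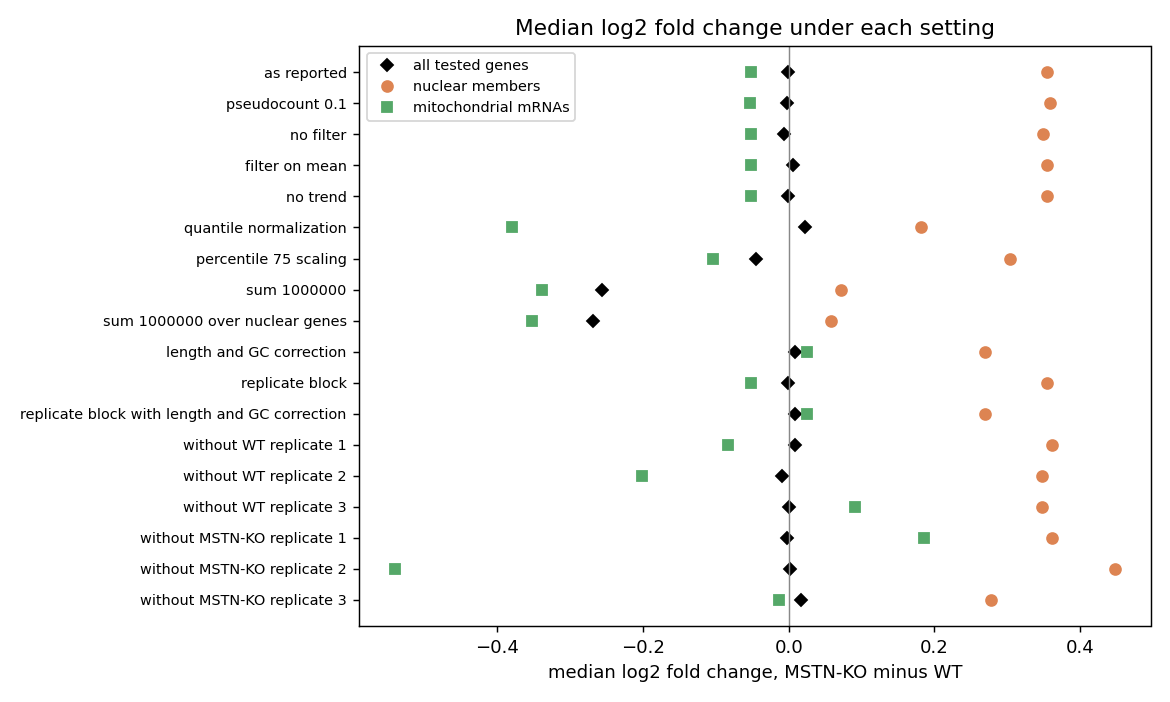
Median log2 fold change, MSTN-KO minus WT, of all tested genes (diamonds), the nuclear respiratory chain genes (circles) and the mitochondrial mRNAs (squares) under each of the 18 settings. The nuclear median stays above 0 and above that of all genes throughout, falling to 0.06 where libraries are scaled to an equal sum over nuclear genes, while the mitochondrial median runs from -0.54 without MSTN-KO replicate 2 to 0.19 without MSTN-KO replicate 1.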

How the data were processed

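RNA-seq libraries of C2C12 cells (3 WT, 3 MSTN-KO) were grouped by their genotype label. The authors deposited FPKM values, one library per file, from reads of an Illumina HiSeq system. Per the submitters' processing notes the tool was Bowtie 0.12.2 and the build mm8; the annotation, gene filter, strand setting and treatment of reads with several matches are not given in the sources used here. GENCODE M21 (GRCm38) gave symbols, positions, length and GC content by gene identifier (14454 of 14548 had a symbol). Processed pseudogenes of respiratory chain genes make their reads uncertain. Atp5o, Cox4i1, Cox8c, Ndufb8, mt-Atp6, mt-Atp8 and mt-Nd4 were not analysed here.

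Genes reaching 1 FPKM in any library were compared as log2(FPKM + 1) by limma 3.58.1 under R 4.3.3 (eBayes with a trend, no replicate block), with Benjamini-Hochberg adjustment over all tested genes and a threshold of 0.05. The fit was tested on simulated data. Alternatives were a pseudocount of 0.1, other filters, no trend, quantile, percentile 75 and sum scaling, a length and GC correction (mgcv 1.9.3), a replicate block and leaving out each library. Replicate numbers did not pair the libraries.

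The genes named are all mitochondrial mRNAs, the listed isoforms, per complex up to 3 largest called rises and falls and the most abundant gene, and up to 2 called rises and 2 falls per other list. Others were chosen after their values were seen, and the values of 1 gene are not reported here. The members and gene lists were chosen with earlier results of these data known. Promoter windows came from RefSeq (GRCm38.p6), and no window was used for Atp5a1, Atp5f1, Atp5mpl, Atp5s, Cox4i2, Cox6a2, Cox6c, Cyc1, Ndufa2, Ndufa4l2, Ndufb9, Ndufs1, Sdhc, Uqcrb, Uqcrc2 and Uqcrq. Python 3.11.15 was used for the other steps.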

Additional observations from a re-analysis of the deposited data

How the results depend on the processing

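The median log2 fold change of the nuclear respiratory chain genes stayed above 0 and above that of all genes in all 18 settings. It moved from 0.35 to 0.18 with quantile normalization, 0.071 with a sum of 1000000 and 0.058 with that sum over nuclear genes. The 31 nuclear genes called higher became 15 with no filter, 18 with quantile normalization, 4 and 5 with the 2 sums, and 18 with the replicate block and the length and GC correction together. Of all tested genes, 4.95, 8.96, 3.23, 3.18 and 8.31% were called higher in these settings, in that order. The 2 called lower became 1 with no filter, a filter on the mean, no trend, quantile normalization or percentile 75 scaling, 4 with either sum and 4 with the replicate block (which calls 32 higher). The replicate numbers do not pair the libraries: deviations of same-numbered libraries from their group means correlated at r = -0.015, -0.13 and -0.14 across genes, and no library correlated best with its own number. Over all genes, the 2 sums gave 350 and 345 calls higher and 2367 and 2407 lower in place of 952 and 971. Applied to the limma fits, the study's criteria gave 254 genes higher and 500 lower with a pseudocount of 0.1, and 510 and 541 lower with the 2 sums, in place of 131 and 249. Without ribosomal protein genes in the sum, the nuclear share rose by 0.696 percentage points in place of 0.249.

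By complex, the calls higher in complex I (18) became 9 with no filter, 2 and 2 with the sums and 8 with the block and correction together. Those in complex III (4) became 2 with no filter or quantile normalization and 0 and 1 with the sums. Those in ATP synthase (7) became 2 with no filter, 3 with no trend or quantile normalization and 0 with either sum. The 1 in complex IV became 0 with quantile normalization and 3 with the length and GC correction. Log2 fold changes that turned negative were, with quantile normalization, mt-Nd1 (-0.33), mt-Nd3 (-0.18), mt-Nd6 (-0.17), mt-Co2 (-0.24), Cox6a1 (-0.063), Atp5g2 (-0.0077), Atp5g3 (-0.014), Sdhd (-0.036), Atp5b (-0.078) and Cycs (-0.024), and with percentile 75 scaling mt-Nd6 (-0.0033). With the 2 sums, mt-Nd1 (-0.23 and -0.24), mt-Nd6 (-0.24 and -0.25), mt-Co2 (-0.071 and -0.085), Sdhd (-0.19 and -0.21) and Cycs (-0.12 and -0.14) turned negative, with the median of all genes at -0.26 and -0.27. The length and GC correction turned mt-Nd2 (0.087) and mt-Cytb (0.032) positive, with or without the replicate block. The cause of these changes was not tested.

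Leaving out 1 library at a time gave 4 to 45 nuclear genes called higher and 1 to 3 called lower, 423 to 1184 and 606 to 1251 over all genes, 2 to 24 called higher in complex I, 0 to 5 in complex III, 1 to 6 in complex IV and 0 to 9 in ATP synthase. It gave 0 to 1 mitochondrial mRNAs called higher and 0 to 3 lower, with medians from -0.54 to 0.19. Ranges that crossed 0 were -0.22 to 0.27 for mt-Nd1, -0.56 to 0.51 for mt-Nd2, -0.11 to 0.26 for mt-Nd6, -0.62 to 0.42 for mt-Cytb, -0.71 to 0.097 for mt-Co1, -0.52 to 0.087 for mt-Co3, -0.052 to 0.33 for Cycs and -0.013 to 0.18 for Sdhd. Fewer libraries enter these fits. Depth is unknown, so counting error could not be set beside any value.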
